A study of Mus musculus with 7 samples.

Results

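Pancreatic stellate cells of mice treated with caerulein were examined one gene group at a time. The cells are those that the study's deposited annotation places in a stellate cluster, and in the caerulein libraries this is a single cluster, named activated pancreatic stellate 1. It held 5715 of the 22177 caerulein cells, out of 58473 cells in the series, 3675 from caerulein mouse 1 and 2040 from caerulein mouse 2. The stellate-named cells of WT mice served as the reference, 3370 in clusters named quiescent and 275 in a cluster named activated.

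The caerulein group was 2 C57BL/6 mice of wild type genotype, 2 months old. They received caerulein at 100 µg/kg by intraperitoneal injection, 7 times at hourly intervals on each of 2 consecutive days, and the pancreas was collected on day 4. The WT group was 2 C57BL/6 mice of the same age that drank doxycycline at 1 mg/ml with 7.5% sucrose for 7 days. A further group, i4F, was 3 C57BL/6 mice, 2 months old, that drank the same water and carried a doxycycline-inducible cassette of the reprogramming factors Oct4, Sox2, Klf4 and Myc inserted in Pparg, with the rtTA activator in Rosa26, both heterozygous and neither limited to the pancreas. The i4F mice entered the fits to estimate the spread between mice, and with it the filter on low counts and the scaling. No test compared them with another group. WT mice had doxycycline with sucrose in the water. Caerulein mice had no doxycycline, and no sucrose is stated for them. An effect of caerulein and one of withholding that water cannot be told apart here. A saline control of the caerulein injections was not analysed here. Each mouse gave one 3′ single-cell library.

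Stellate cells are the fibroblast-like cells that lie around the acini and ducts of the pancreas. In the resting gland they store vitamin A as retinyl esters in lipid droplets and keep a thin matrix. Caerulein is an analogue of the hormone cholecystokinin that over-stimulates acinar cells and causes an acute, self-limiting pancreatitis, in which stellate cells are known to lose their lipid droplets, take on smooth muscle α-actin, divide and lay down collagen.

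The libraries held 4327 to 15138 cells and 15469018 to 64784216 unique molecular identifiers (UMIs, the molecules counted). The caerulein stellate cells gave 27911927 UMIs in mouse 1 and 7509422 in mouse 2, with medians of 7257 and 3475 UMIs per cell. The WT quiescent cells gave 4945833 and 8692301 UMIs. A median of 0.490% and 0.744% of the UMIs of a caerulein stellate cell were mitochondrial, below the 1.73% and 0.939% of the larger WT quiescent cluster. Caerulein mice 1 and 2 shared 25 cell barcodes, within the 3 to 39 shared by any pair of mice. The doublet caller Scrublet marked 329 of the stellate cells of caerulein mouse 1 (8.95%) and 108 of mouse 2 (5.29%), against 5.17% and 3.84% of all cells of those libraries. It marked 2 of 4327 cells in WT mouse 1 and 0 of 7614 in i4F mouse 3, where it cannot be taken to have worked, so doublets were kept in the main fits. Levels below are CPM, the share that a gene takes of the UMIs summed over the stellate cells of a mouse, scaled as is usual for that unit, and they compare a gene between groups. They are shares of stellate RNA, so more RNA of one kind lowers all others.

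The cluster carried general fibroblast markers. The authors named their clusters from marker genes of these same cells, so the values describe the cluster and do not test its label. Decorin (Dcn), a small proteoglycan of fibroblasts, had a UMI in 98.2% and 96.1% of the caerulein stellate cells, against 5.54% and 1.81% of the caerulein endothelial cells. The collagen I chain Col1a1 had one in 98.0% and 98.4%, against 8.39% and 4.71% of endothelial cells. The PDGF receptor Pdgfra had one in 47.5% and 34.5%, against 1.25% and 0.362%. The endothelial cells were shallower, with medians of 1421 and 866 UMIs. The smooth muscle actin Acta2 was found in 65.1% and 58.4% of the stellate cells, against 5.71% and 1.09% of the endothelial cells. The 10 genes with the highest level relative to the other caerulein cells were Col1a1, Col1a2, Mfap5, Bgn, Serpinf1, Fstl1, Col3a1, Fbn1, Postn and Serpinh1, all products of matrix-forming cells.

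**Figure D1:**
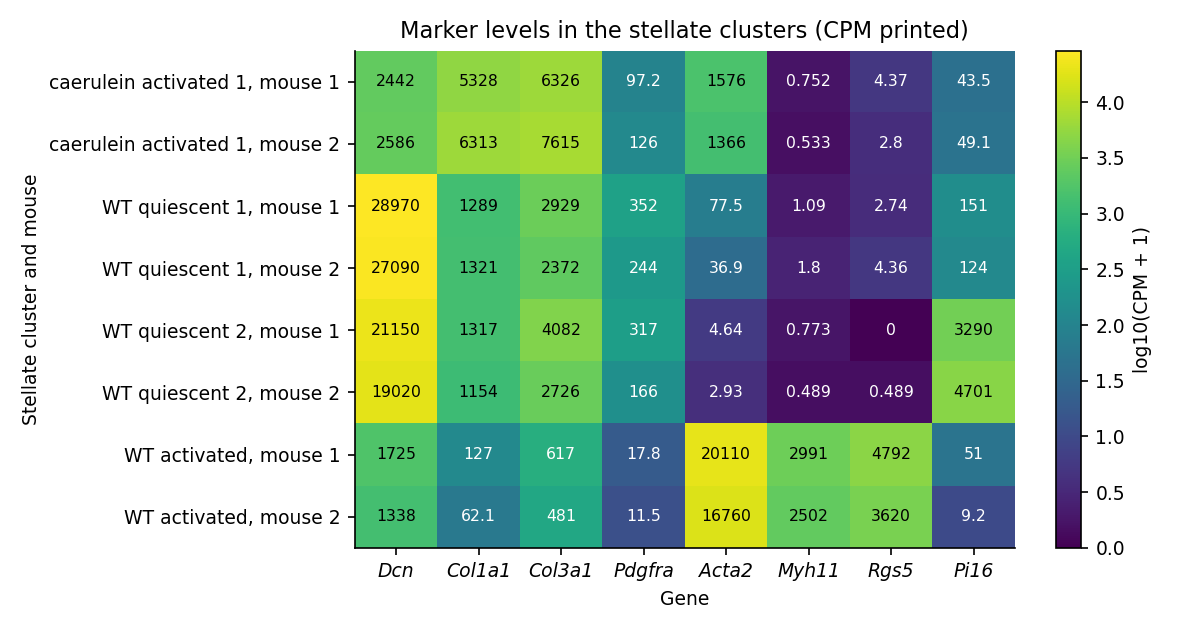
Level of 8 genes (columns) in each stellate cluster of the caerulein and WT mice (rows, 1 per mouse). Colour is log10(CPM + 1) and the CPM is printed in each cell. The WT cluster named activated has Acta2 at 20110 and 16760 CPM with Myh11 and Rgs5, and little Col1a1 or Pdgfra.

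The WT cluster named activated did not match the caerulein cluster in its markers. It had Acta2 at 20110 and 16760 CPM in WT mice 1 and 2, with Myh11, the smooth muscle myosin, at 2991 and 2502 CPM and Rgs5, a pericyte gene, at 4792 and 3620 CPM. Pdgfra was at 17.8 and 11.5 CPM there and Col1a1 at 127 and 62.1 CPM. Its 10 leading genes were Acta2, Tagln, Myh11, Myl9, Rgs5, Tpm2, Lmod1, Cox4i2, Mustn1 and Tpm1, smooth muscle and pericyte genes for the most part. In the caerulein stellate cells Myh11 was at 0.752 and 0.533 CPM, and those mice had a smooth muscle cluster of their own. The quiescent clusters held Dcn at 19020 to 28970 CPM and Pdgfra at 166 to 352 CPM. In the caerulein cells Dcn was at 2442 and 2586 CPM, nearer to the 1725 and 1338 CPM of the WT activated cluster. Pdgfra was at 97.2 and 125.7 CPM in them, between the WT activated and quiescent clusters. Because the WT activated cluster led with smooth muscle and pericyte genes, the caerulein cells were set against the WT quiescent cells. The comparisons that include the WT activated cluster are given apart, the fit of stellate with endothelial cells among them.

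No difference was detected in the share of stellate cells between the caerulein and WT libraries. They were 24.3% (95% interval 23.6 to 25) and 29.0% (27.9 to 30.1) of the cells of the caerulein mice, and 26.3% (25 to 27.6) and 39.6% (38.4 to 40.8) of those of the WT mice. The means were 26.6% ± 3.33 and 33.0% ± 9.43 (SD, n = 2 each). The difference was -6.34 percentage points, with an exact two-sided permutation p of 0.667 where 0.333 is the smallest that 2 mice against 2 allow. Of the non-immune cells alone they were 56.3% and 53.6% in caerulein mice and 27.7% and 44.9% in WT mice, a difference of 18.6 points in the other direction (exact permutation p = 0.333). Among cells with at least 500 genes they were 27.2% and 33.6% in caerulein mice and 38.7% and 47.8% in WT mice, a difference of -12.9 points (exact permutation p = 0.333). Without WT mouse 2 the difference over all cells was 0.329 points. Intervals are exact binomial and cover counting error only, and the cells recovered depend on how the tissue was dissociated.

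The gene comparison used edgeR's quasi-likelihood test on UMI counts summed per mouse, fitted over all 7 mice, with Benjamini-Hochberg adjustment over 14583 genes. Caerulein stellate cells had 2232 genes with an adjusted p under 0.05 against WT quiescent stellate cells, 15.3% of those tested. Of these 1366 were higher (9.37%) and 866 lower (5.94%). These shares are the background for each gene group below in this fit. The median log2 change of all genes tested was -0.03, and with library totals in place of TMM scaling it was -0.16 with 1043 higher and 1081 lower. With the caerulein and WT mice alone, where the spread between i4F mice does not enter, 5088 of 13551 genes passed (2555 higher, 18.9%, and 2533 lower, 18.7%), the background for the counts given below for those mice alone. Leaving out caerulein mouse 1 left 5 calls, caerulein mouse 2 left 47, WT mouse 1 left 1 and WT mouse 2 left 22, and with these removals 74 to 82 of the 82 called genes among 119 chosen for naming no longer passed, with no change of direction. In the fit of the 4 mice alone the same removals left 1257, 2009, 4190 and 4912. The library names form 2 series, one with WT mouse 1 and the i4F mice and one with WT mouse 2 and both caerulein mice, and with the series as a term 1 gene passed. Not overlapping between 2 mice and 2 mice is common, as 70.5% of the genes tested did not.

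The rule for the largest changes named 10 genes in each direction. Higher were S100a9, Plk1, Hmmr, Cdca3, Cxcl5, Ube2c, Hist1h1b, Saa3, Cenpf and Arg1. S100a9 is a neutrophil gene, and the neutrophil list is set against other cells of the same mice below. Lower were Lamc3, Galnt15, Gsta3, Pi16, Krtdap, Igfbp5, Mgll, Scara5, Lims2 and Vit. The basement membrane laminin chain Lamc3 was at 0.896 and 0.400 CPM in caerulein mice and 78.3 and 72.6 CPM in WT mice, a log2 change of -6.52 (SE 0.86, edgeR adjusted p = 0.0145). The ferritin receptor Scara5, known for marking a subset of fibroblasts, was at 11.8 and 13.3 CPM against 211.9 and 153.4 CPM, a log2 change of -3.73 (SE 0.29, adjusted p = 0.00652). Mgll, the lipase that splits monoacylglycerol, was at 3.15 and 2.66 CPM against 39.2 and 65.8 CPM. The IGF-binding protein Igfbp5 was at 12.8 and 16.4 CPM against 243.2 and 291.1 CPM. That the mice do not overlap for these genes was set by the rule that chose them.

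**Figure D2:**
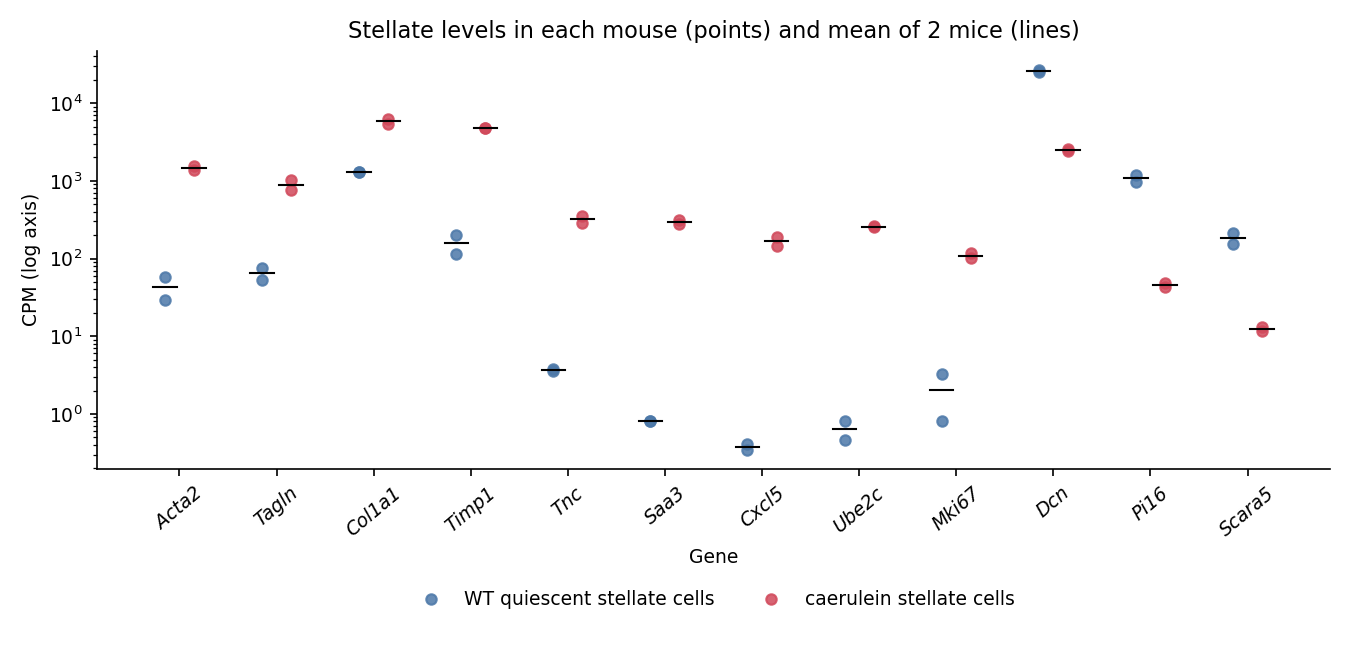
Level in CPM (log axis) of 12 genes in the stellate cells of each mouse (points), WT quiescent in blue and caerulein in red, with the mean of the 2 mice as a line. Acta2, Timp1, Tnc, Saa3, Cxcl5 and Ube2c sit above both WT mice in both caerulein mice, and Dcn, Pi16 and Scara5 below.

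Contractile genes rose. Of 18 listed genes of the contractile apparatus and of myofibroblasts, 13 were higher and 0 lower, with a median log2 change of 1.83. With library totals in place of TMM scaling 10 were higher and 0 lower. The smooth muscle actin Acta2 (chr19:34241090-34255590, minus strand, GRCm38) was at 1576 and 1366 CPM in the caerulein mice and 58.4 and 28.9 CPM in the WT quiescent cells. Both caerulein mice were far above both WT mice, and the log2 change was 5.24 (SE 0.83, adjusted p = 0.0173). Tagln, the actin-bundling protein SM22, was at 1029 and 754.3 CPM against 75.8 and 53.2 CPM, a log2 change of 3.94 (SE 0.60, adjusted p = 0.0165). The tropomyosin Tpm2, which stiffens actin filaments, went from 97.7 and 101.0 CPM to 875.8 and 995.5 CPM. Cald1, caldesmon, rose by less, 1063 and 1167 CPM against 654.7 and 609.4 CPM (log2 change 0.95, adjusted p = 0.0486). The largest fitted change of the list was that of Actg2, the enteric smooth muscle actin. It had 414 UMIs in the caerulein cells and 3 in the WT quiescent cells, a ratio of 53.1 (95% counting interval 18.1 to 259). Counts in this and later such ratios are summed over both mice of a group, so the intervals leave out the spread between mice.

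Lrrc15, Cthrc1 and Fap of this list were singled out after their values were seen. Lrrc15 had 405 UMIs in the caerulein cells and 3 in the WT quiescent cells, a ratio of 52.0 (17.7 to 253), and passed the test (adjusted p = 0.0432). Cthrc1, a secreted protein of collagen-forming cells, was at 381.7 and 377.9 CPM against 5.06 and 55.1 CPM, where the WT mice differed widely and the test was not passed (adjusted p = 0.0582). Fap, the surface protease often used as a marker of activated fibroblasts, was at 47.2 and 44.1 CPM against 128.6 and 84.0 CPM, below both WT mice (log2 change -1.07, adjusted p = 0.154). With the caerulein and WT mice alone Fap had an adjusted p of 0.0156 and was the 1 lower gene of the list, beside 16 higher.

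Of 17 collagen chains 6 were higher and 0 lower, Col1a1, Col1a2, Col3a1, Col5a1, Col5a2 and Col6a3, with a median log2 change over the list of 0.20. Col1a1 (chr11:94936224-94953042, plus strand, GRCm38) was at 5328 and 6313 CPM against 1296 and 1282 CPM, a log2 change of 2.30 (SE 0.47, adjusted p = 0.0276). Col3a1, the chain of collagen III, had the highest level of the list, 6326 and 7615 CPM against 3231 and 2456 CPM (log2 change 1.43, adjusted p = 0.0384). Col1a2 rose by 1.33 on the log2 scale (adjusted p = 0.0447) and Col5a1, a chain that seeds collagen fibrils, by 1.58 (adjusted p = 0.0363). Collagen XIV (Col14a1), a fibril-associated chain, was at 236.7 and 200.5 CPM against 542.9 and 580.7 CPM without passing (log2 change -1.23, adjusted p = 0.272). With library totals in place of TMM scaling 3 chains were higher and 0 lower.

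Genes that fold, modify and crosslink collagen rose, 10 of 16 higher and 0 lower, with a median log2 change of 1.15. With library totals 7 were higher and 0 lower. Fkbp10, a collagen chaperone of the endoplasmic reticulum, was at 395.0 and 475.9 CPM against 78.1 and 71.4 CPM (log2 change 2.67, SE 0.43, adjusted p = 0.0181). The lysyl hydroxylase Plod2, whose product prepares collagen for crosslinks, was at 345.8 and 357.7 CPM against 77.0 and 84.2 CPM (log2 change 2.25, adjusted p = 0.0158). Lox, the lysyl oxidase that forms the crosslinks, was at 473.2 and 481.5 CPM against 134.5 and 99.6 CPM. Serpinh1, the collagen chaperone HSP47, had the highest level of the list, 4926 and 5138 CPM against 2435 and 1991 CPM (log2 change 1.32, adjusted p = 0.0436). Pcolce, which helps a protease to trim procollagen, was at 917.8 and 876.6 CPM against 1532 and 1226 CPM (log2 change -0.48, adjusted p = 0.295). Of 17 genes of the secretory pathway and the unfolded protein response 6 were higher and 0 lower, 3 and 0 with library totals. Sec61b, a subunit of the channel through which new proteins enter the endoplasmic reticulum, was at 1513 and 1282 CPM against 318.0 and 326.5 CPM (log2 change 2.25, adjusted p = 0.0152). Kdelr2, which returns chaperones from the Golgi, rose by 1.79 on the log2 scale (adjusted p = 0.0300).

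Matricellular proteins sit in the matrix and signal to cells rather than bear load. Of 17 genes 4 were higher and 0 lower, 9 and 3 with the caerulein and WT mice alone. Tnc, the tenascin of wounds and embryonic tissue (chr4:63959785-64047015, minus strand, GRCm38), was at 288.5 and 353.2 CPM in caerulein mice and 3.84 and 3.57 CPM in WT mice. The caerulein mice lay far above both WT mice, and the log2 change was 6.56 (SE 0.52, adjusted p = 0.00652). Postn, periostin, was at 621.2 and 619.9 CPM against 77.0 and 72.9 CPM (log2 change 3.18, SE 0.45, adjusted p = 0.0150). The hyaluronan synthase Has2 (log2 change 1.6, adjusted p = 0.0465) and Wisp2 (log2 change 2.09, adjusted p = 0.0475) were the other 2. Sparc, a collagen-binding protein with the highest level of the list, was at 15100 and 15290 CPM against 7798 and 7896 CPM and did not pass (adjusted p = 0.0546). Elastin (Eln) was at 70.7 and 78.8 CPM against 169.0 and 120.5 CPM (log2 change -0.82, adjusted p = 0.0663).

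Small proteoglycans and elastic fibre proteins organise the matrix of resting connective tissue. Of 14 genes 1 was higher and 2 lower, and with the caerulein and WT mice alone 1 was higher and 7 lower. Dcn, one of the genes that mark the cells, was at 2442 and 2586 CPM against 26930 and 25190 CPM. Both caerulein mice were far below both WT mice, yet the fit with the i4F mice, whose own levels ran from 1614 to 15890 CPM, gave an adjusted p of 0.0843 (log2 change -3.25, SE 1.13). With the caerulein and WT mice alone it was 0.00168. Fbln5, the fibulin that assembles elastic fibres, was at 22.4 and 22.6 CPM against 221.6 and 179.5 CPM (log2 change -3.02, SE 0.37, adjusted p = 0.0132). The proteoglycan Prelp fell by 2.76 on the log2 scale (adjusted p = 0.0286), while Efemp2, a fibulin that brings lysyl oxidase to elastin, rose by 1.30 (adjusted p = 0.0205).

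Among matrix proteases and their inhibitors 4 of 18 genes tested were higher and 3 lower (4 and 8 with the caerulein and WT mice alone). Timp1, the secreted inhibitor of matrix metalloproteinases (chrX:20870166-20874735, plus strand, GRCm38), was at 4832 and 4757 CPM against 199.8 and 113.1 CPM. The caerulein mice were nearly equal and far above the WT mice, and the log2 change was 5.09 (SE 0.65, adjusted p = 0.0136). Timp3, a relative that stays bound to matrix, went the other way, 99.7 and 127.7 CPM against 760.0 and 612.6 CPM (log2 change -2.47, SE 0.37, adjusted p = 0.0165). Timp2 was at 67.8 and 85.8 CPM against 621.9 and 576.9 CPM and did not pass (log2 change -2.84, adjusted p = 0.0888; 0.000805 with the caerulein and WT mice alone). Adam12, a membrane protease of regenerating mesenchyme, was at 75.8 and 103.9 CPM against 4.65 and 5.18 CPM (log2 change 4.29, adjusted p = 0.0149). Serpine2, an inhibitor of serine proteases, fell by 1.89 on the log2 scale (adjusted p = 0.0326). The gelatinase Mmp2 was at 229.3 and 238.0 CPM against 554.2 and 429.8 CPM (log2 change -0.94, adjusted p = 0.0353). Mmp9, better known from neutrophils and macrophages, had 118 UMIs against 1, and its adjusted p went from 0.0416 to 0.0555 without the macrophage-gene sub-cluster described below.

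**Figure D3:**
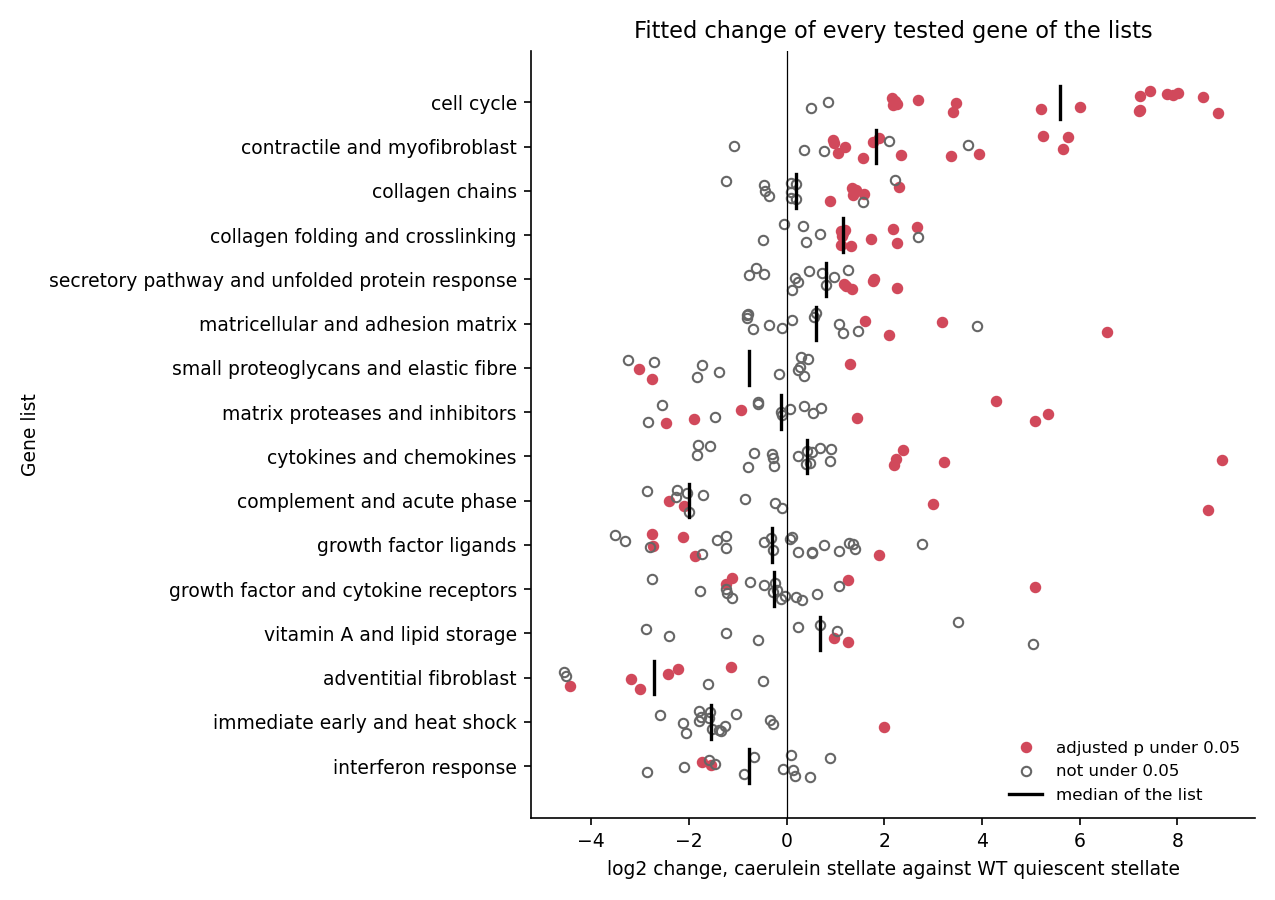
Fitted log2 change of each tested gene (points) of 16 gene lists, caerulein stellate cells against WT quiescent stellate cells, with genes of adjusted p under 0.05 filled and the median of each list as a bar. The cell cycle list has a median of 5.60, the contractile list 1.83 and the adventitial list -2.72.

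Cell cycle genes rose. Of 20 listed genes 18 were higher and 0 lower, with a median log2 change of 5.60, and the count was 19 with the caerulein and WT mice alone. Ube2c, the ubiquitin-conjugating enzyme of the anaphase-promoting complex, was at 253.5 and 260.3 CPM against 0.809 and 0.460 CPM (log2 change 8.84, SE 1.01, adjusted p = 0.0110). The topoisomerase Top2a was at 137.3 and 165.8 CPM against 1.82 and 0.575 CPM (log2 change 7.23, adjusted p = 0.0145). Mki67, the proliferation marker Ki-67, was at 100.4 and 116.9 CPM against 3.24 and 0.805 CPM (log2 change 6.00, adjusted p = 0.0163). Mki67 had a UMI in 30.1% of the stellate cells of caerulein mouse 1 and 22.6% of mouse 2, against 2.68% and 2.54% of the endothelial cells of those mice. Top2a had one in 28.4% and 22.4%, against 2.50% and 2.17%. In the largest macrophage cluster of those mice, with medians of 3312.5 and 1876 UMIs per cell, Mki67 had a UMI in 9.54% and 7.47% of cells and Top2a in 5.96% and 6.84%. The replication clamp Pcna was at 27.0 and 24.6 CPM against 22.0 and 18.3 CPM and did not pass (log2 change 0.50, adjusted p = 0.266).

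Other mitotic genes outside the list were nearly absent from the WT quiescent cells. Plk1, Hmmr, Cdca3 and Hist1h1b were named above by the rule for the largest changes, so their large rises add no support to the list. Plk1, the polo-like kinase, had 1785 UMIs in the caerulein cells and 1 in the WT cells, a ratio of 687 (95% counting interval 123 to 27200). Hmmr had 3254 against 2, a ratio of 626 (173 to 5170), and Cdca3 had 3441 against 3, a ratio of 442 (151 to 2140). Hist1h1b, a linker histone made in S phase, was at 166.3 and 112.9 CPM against 0.404 and 0.345 CPM. Reads of the histone genes can be split among near-identical copies, so a single histone gene is uncertain.

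The promoters of 3 genes of the cell cycle list are shown because they carry the elements known from genes that peak in G2 and M phase. These are the cell cycle genes homology region TTTGAA, a binding site of the DREAM and MuvB complexes, and the CCAAT box bound by NF-Y. Each run is 300 bases from RefSeq (GRCm38.p6), 250 before and 50 from the annotated start of transcription, read 5′ to 3′ on the strand of the gene. Capitals mark TTTGAA and CCAAT on either strand (TTCAAA and ATTGG). The regions are chr2:164769679-164769978 on the plus strand, chr10:69352863-69353162 on the minus strand and chr9:70421505-70421804 on the minus strand.
Ube2c: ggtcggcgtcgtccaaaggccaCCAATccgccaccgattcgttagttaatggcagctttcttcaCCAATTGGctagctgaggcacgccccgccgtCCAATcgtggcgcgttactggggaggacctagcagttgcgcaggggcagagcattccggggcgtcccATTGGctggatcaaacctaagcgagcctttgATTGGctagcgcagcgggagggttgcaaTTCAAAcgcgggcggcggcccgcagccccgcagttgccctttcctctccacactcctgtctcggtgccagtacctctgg
Cdk1: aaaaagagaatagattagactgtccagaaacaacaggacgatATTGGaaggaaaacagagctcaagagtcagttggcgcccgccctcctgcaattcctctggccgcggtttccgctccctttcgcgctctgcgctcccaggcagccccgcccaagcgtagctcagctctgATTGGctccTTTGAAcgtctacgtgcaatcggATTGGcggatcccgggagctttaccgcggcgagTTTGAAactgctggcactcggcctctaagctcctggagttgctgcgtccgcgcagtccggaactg
Ccnb2: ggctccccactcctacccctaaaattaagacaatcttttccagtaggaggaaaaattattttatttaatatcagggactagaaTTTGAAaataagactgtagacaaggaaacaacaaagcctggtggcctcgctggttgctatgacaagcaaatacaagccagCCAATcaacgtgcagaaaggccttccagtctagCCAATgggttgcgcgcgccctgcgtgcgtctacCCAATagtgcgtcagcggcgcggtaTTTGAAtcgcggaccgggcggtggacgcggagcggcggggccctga

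The Ube2c promoter held 1 TTTGAA and 6 CCAAT, of which 2 overlap in one run, the Cdk1 promoter 2 and 3, and the Ccnb2 promoter 2 and 3. The kinase Cdk1, which drives entry into mitosis, was at 135.4 and 166.1 CPM in caerulein stellate cells and 1.62 and 0.690 CPM in WT quiescent cells (log2 change 7.24, SE 0.86, adjusted p = 0.0118). Its partner cyclin B2 (Ccnb2) was at 96.1 and 139.8 CPM against 0.607 and 0.460 CPM (log2 change 7.91, adjusted p = 0.0161). A promoter was found for 17 of the 20 cell cycle genes, of which 8 genes held TTTGAA and 15 held CCAAT. Of all 32851 promoters of that length 17.9% held TTTGAA and 37.4% held CCAAT. For 14 of the 18 contractile genes with a promoter, 1 held TTTGAA and 7 held CCAAT. A match is only a run of letters, and binding was not measured.

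Cytokines and chemokines showed a few large rises beside genes that were high in both groups. Of 21 genes 5 were higher and 0 lower (6 and 4 with the caerulein and WT mice alone). Cxcl5, a chemokine that draws neutrophils (chr5:90759360-90761624, plus strand, GRCm38), was at 144.5 and 191.9 CPM against 0.404 and 0.345 CPM (log2 change 8.91, SE 0.64, adjusted p = 0.00495). Il11, a cytokine of the IL-6 family linked to fibrosis, was at 70.1 and 29.6 CPM against 6.07 and 5.75 CPM (log2 change 3.23, adjusted p = 0.0286). Its relative Lif was at 27.9 and 24.9 CPM against 6.07 and 6.56 CPM (log2 change 2.19, adjusted p = 0.0108). The monocyte chemokine Ccl8 rose by 2.38 on the log2 scale (adjusted p = 0.0108). Cxcl2 rose by 2.24 (adjusted p = 0.0474), with an adjusted p of 0.121 without the macrophage-gene sub-cluster. Cxcl1, a chemokine that draws neutrophils as Cxcl5 does, was at 2646 and 2493 CPM against 1502 and 2333 CPM, and Ccl2 was at 1180 and 1236 CPM against 644.0 and 981.8 CPM. For Cxcl1, Ccl2 and Il6 no difference was detected (adjusted p = 0.563, 0.498 and 0.597). The eosinophil chemokine Ccl11 was at 552.9 and 638.9 CPM against 2757 and 1848 CPM (log2 change -1.81, adjusted p = 0.306).

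Acute phase and complement genes had a median log2 change of -1.99, with 11 of 13 tested below 0. Past the test 2 were higher and 2 lower (2 and 8 with the caerulein and WT mice alone). Saa3, the serum amyloid A made outside the liver (chr7:46711998-46715700, minus strand, GRCm38), was at 281.2 and 312.0 CPM against 0.809 and 0.805 CPM (log2 change 8.62, SE 0.59, adjusted p = 0.00495). It had a UMI in 31.6% and 11.3% of the stellate cells, and in 8.04% and 2.17% of the endothelial cells and 24.7% and 22.1% of the cells of the largest macrophage cluster of the same mice. Lcn2, the iron-scavenging lipocalin, was at 40.9 and 22.8 CPM against 6.07 and 3.11 CPM (log2 change 2.99, adjusted p = 0.0219). The phospholipase Pla1a fell by 2.09 on the log2 scale (adjusted p = 0.0234). The complement inhibitor Serping1 was at 446.9 and 604.7 CPM against 2434 and 2129 CPM, and the central component C3 at 237.6 and 411.1 CPM against 1340 and 971.5 CPM, neither past the test (adjusted p = 0.161 and 0.212).

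Among 26 growth factor ligands 1 was higher and 4 lower (5 and 9 with the caerulein and WT mice alone). Those lower were Bmp2 (log2 change -2.75), Pdgfd (-2.74), Fgf10 (-2.12) and Wnt5a (-1.87), signals that pass between mesenchyme and epithelium in development. Bmp2 was at 4.228 and 3.995 CPM against 22.2 and 37.5 CPM (adjusted p = 0.0320), and Fgf10 was at 6.06 and 6.13 CPM against 36.2 and 22.7 CPM (adjusted p = 0.0414). Wnt4 was the ligand that rose, from 6.07 and 4.37 CPM to 16.6 and 18.5 CPM (log2 change 1.89, SE 0.33, adjusted p = 0.0205). Igf1, the most abundant of those quoted, was at 522.4 and 624.9 CPM against 288.1 and 228.8 CPM (adjusted p = 0.0513), and the activin subunit Inhba at 140.0 and 114.0 CPM against 7.89 and 31.2 CPM (adjusted p = 0.0528).

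Of 20 receptors tested 2 were higher and 2 lower (3 and 8 with the caerulein and WT mice alone). Il1rl1, the IL-33 receptor, had 278 UMIs in caerulein cells and 3 in WT quiescent cells, a ratio of 35.7 (12.1 to 174). The endothelin receptor Ednra rose by 1.26 on the log2 scale (adjusted p = 0.0344). Igf1r and the GAS6 receptor Axl fell by 1.24 and 1.11 on the log2 scale (adjusted p = 0.0386 and 0.0299). Pdgfra, which also marks the cells, was at 97.2 and 125.7 CPM against 342.5 and 225.5 CPM (log2 change -1.21, adjusted p = 0.0953; 0.0105 with the caerulein and WT mice alone). Cckar, the receptor on which caerulein acts, was low in stellate cells of both groups. It was at 0.609 and 0.533 CPM in caerulein mice and 6.27 and 2.88 CPM in WT mice, and did not pass (adjusted p = 0.234).

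Genes of vitamin A and lipid storage gave 2 higher and 0 lower of 11 tested, 3 of the 14 listed genes being too low to test (5 and 1 of 9 with the caerulein and WT mice alone). The retinol dehydrogenase Rdh10 was at 73.6 and 83.8 CPM against 35.0 and 36.7 CPM (log2 change 1.25, adjusted p = 0.0261). Lrat, the enzyme that forms retinyl esters, was at 2.43 CPM or less in all 4 mice. Rarres2, chemerin, was at 217.1 and 244.6 CPM against 1414 and 1257 CPM and did not pass (log2 change -2.40, adjusted p = 0.147).

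Genes of adventitial fibroblasts, the connective tissue cells around vessels and ducts, fell. Of 10 genes 6 were lower and 0 higher, with a median log2 change of -2.72. Pi16, the marker of that population (chr17:29317680-29330593, plus strand, GRCm38), was at 43.5 and 49.1 CPM against 971.7 and 1201 CPM (log2 change -4.44, SE 0.61, adjusted p = 0.0149). Dpp4 was at 16.4 and 13.6 CPM against 98.7 and 79.7 CPM (log2 change -2.43, adjusted p = 0.0108). Igfbp6 (log2 change -3.19) and Cd34 (log2 change -2.22) were also lower, with adjusted p of 0.0353 and 0.0145. The actin-severing protein gelsolin (Gsn), the most abundant of the list, was at 1038 and 1228 CPM against 27540 and 28510 CPM and did not pass (adjusted p = 0.0762; 0.00109 with the caerulein and WT mice alone). In the WT mice Pi16 lay mostly in the second quiescent cluster, of 196 and 435 cells, at 3290 and 4701 CPM against 151 and 124 CPM in the first. Dpp4 was at 291.5 and 279.2 CPM in the second cluster and 30.4 and 18.4 CPM in the first. The list counts do not separate the share of the second cluster in the reference from levels per cell. In the caerulein stellate cells the highest level of Pi16 was in a sub-cluster of 12.2% of the cells of each mouse, at 214.0 and 314.5 CPM. These groups come from separate clusterings, so their levels are set side by side without a test. With the first quiescent cluster alone as the WT reference, a fit added after seeing the data, 2288 of 14204 genes passed (1410 higher and 878 lower). Of the genes chosen for naming 9 no longer passed in it and 2 newly did.

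Immediate early and heat shock genes are induced within minutes by stress, also when tissue is dissociated. Of 16 genes 1 was higher and 0 lower, with a median log2 change of -1.54, and with the caerulein and WT mice alone 1 was higher and 11 lower. Fos was at 1574 and 2062 CPM against 7317 and 6132 CPM (adjusted p = 0.122) and Egr1 at 407.9 and 679.4 CPM against 4046 and 3080 CPM (adjusted p = 0.0916). The summed level of the list was 11170 and 12690 CPM in caerulein stellate cells and 29300 and 34970 CPM in WT quiescent cells. In endothelial cells of the same mice it was 15080 and 18230 CPM after caerulein and 28440 and 38440 CPM in WT. Ier3 was the gene that rose, from 302.5 and 545.1 CPM to 1624 and 1521 CPM (log2 change 2.00, adjusted p = 0.0219). Of 14 interferon response genes 0 were higher and 2 lower, Ifit1 (log2 change -1.73, adjusted p = 0.0344) and Ifit3 (log2 change -1.54, adjusted p = 0.0371), with 0 and 8 in the caerulein and WT mice alone. The transcription factor Irf1 was at 29.8 and 39.3 CPM against 293.4 and 254.0 CPM (adjusted p = 0.109).

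RNA of macrophages was present in the cluster. All 10 macrophage and monocyte genes had counts, 9 of 10 were higher than in WT quiescent cells and 0 lower. Their summed level was 1798 and 1146 CPM in caerulein stellate cells against 29.3 and 59.5 CPM in WT quiescent cells, 4.62% and 3.15% of the level in the caerulein macrophage clusters. The lysozyme gene Lyz2 was at 730.2 and 471.9 CPM against 7.28 and 13.6 CPM and had a UMI in 40.7% and 14.6% of the stellate cells. In the endothelial cells of the same mice it had one in 32.5% and 11.2%, and those cells were shallower. Ptprc, the leukocyte antigen CD45, had one in 4.76% and 1.37% of the stellate cells, below the 5.89% and 2.90% of those endothelial cells and so not read as expression by the stellate cells. Without a sub-cluster of 484 cells led by macrophage genes (below) the summed level was 173.4 and 78.6 CPM and 1 of the 10 genes was called. Without those cells the counts of the collagen, contractile, cell cycle, matricellular and adventitial lists were the same, those higher went from 4 to 3 for proteases and from 5 to 4 for cytokines and from 3 to 2 for neutrophil genes, and those lower went from 4 to 3 for ligands and from 2 to 3 for receptors. In all 1923 genes were called (1191 higher, 732 lower). Of the neutrophil genes tested 3 of 4 were higher, summing to 37.5 and 20.8 CPM against 0.607 and 0.920 CPM over the list. The list summed to 158.5 and 69.8 CPM in the endothelial cells of the caerulein mice, above the stellate cells. In their macrophages it summed to 677.9 and 504.6 CPM. Without the 484 cells the stellate sum was 34.7 and 18.0 CPM, and the part of RNA from other cells in it was not tested. S100a9, a calcium-binding protein of neutrophils, had 606 UMIs against 0, at least 77.8-fold higher with 3 UMIs over both WT mice as the floor. The arginase Arg1 had 863 UMIs against 1, and its adjusted p went from 0.0174 to 0.0625 without the 484 cells. The part of these cells' RNA in the other results was not tested beyond that removal.

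Endothelial genes summed to 23.5 and 23.3 CPM in caerulein stellate cells and 127.4 and 189.9 CPM in WT quiescent cells, and 3 of 8 were lower (1 of 7 tested with doublets removed, where 5.12% of all genes were lower and 8.29% higher). Pericyte and smooth muscle genes summed to 214.4 and 216.9 CPM against 225.2 and 210.4 CPM, with 1 of 12 higher. Mesothelial genes summed to 56.3 and 61.9 CPM against 103.3 and 70.8 CPM, and ductal and epithelial genes to 635.1 and 783.0 CPM against 181.0 and 89.7 CPM, mainly Spp1 (570.8 and 709.0 CPM against 77.8 and 18.6 CPM). The ductal list was at 6470 and 8054 CPM in the macrophages of the caerulein mice, and without the 484 cells it summed to 341.9 and 567.7 CPM in the stellate cells. For 15 of 16 acinar marker genes the tables hold no row, and the remaining one, Amy2a5, was at 0.788 and 0.266 CPM in caerulein stellate cells against 37.8 and 64.0 CPM in WT quiescent cells. Other genes of the exocrine pancreas, chosen after their values were seen, did have rows and were detected. Spink1, a trypsin inhibitor, was at 19.45 and 15.98 CPM against 75.6 and 126.2 CPM, and Pla2g1b, the pancreatic phospholipase, at 7.67 and 2.26 CPM against 257.8 and 391.3 CPM (adjusted p = 0.292 and 0.135). Reg2 was at 58.2 and 41.9 CPM against 68.3 and 17.0 CPM, and Reg3b at 98.4 and 110.4 CPM against 85.9 and 7.36 CPM (adjusted p = 0.857 and 0.504). Gm2663, which led a group of cells with these genes in other clusterings, was at 61.9 and 38.6 CPM against 0.202 and 0.115 CPM (log2 change 8.47, SE 0.76, adjusted p = 0.00862). It was at 176.2 and 123.8 CPM in the endothelial cells and 128.3 and 74.0 CPM in the macrophages of the caerulein mice, above the stellate cells, and the part of RNA from other cells in its change was not tested. Lymphocyte genes summed to 2.76 and 1.86 CPM against 1.21 and 3.68 CPM, class II genes to 57.0 and 32.1 CPM (27.6 and 13.7 CPM without the 484 cells) against 26.3 and 66.8 CPM, and adipocyte genes to 537.5 and 647.1 CPM against 1798 and 1484 CPM.

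Set against all WT stellate-named cells, 2532 of 14818 genes passed (17.1%, 1480 higher and 1052 lower), and 11, 47, 8 and 31 without caerulein mouse 1, caerulein mouse 2, WT mouse 1 or WT mouse 2. With library totals in place of TMM scaling 1087 were higher and 1388 lower, and the median of all genes went from -0.04 to -0.19. The cell cycle (18 of 20 higher), collagen folding (10 of 16 higher) and adventitial lists (6 of 10 lower) gave counts equal to those against the quiescent cells. The contractile list did not, with 5 of 18 higher, and Acta2 did not pass (log2 change 0.50, SE 0.68, adjusted p = 0.610). Of the pericyte and smooth muscle genes 6 of 12 were lower. Set against the WT activated cluster alone, with its 114 and 161 cells, 3105 of 14454 genes passed (21.5%, 1791 higher and 1314 lower), and 980, 1225, 1436 and 1453 with the same mice left out. With library totals 1169 were higher and 1773 lower, and the median of all genes went from 0.23 to -0.07. In that comparison 12 of 12 pericyte and smooth muscle genes were lower. Of 18 contractile genes 11 were lower and 3 higher, Acta2 with a log2 change of -3.34 (SE 0.71, adjusted p = 0.0157). Of 17 collagen chains 13 were higher and 1 lower, Col1a1 with a log2 change of 6.25 (SE 0.62, adjusted p = 0.00121). Since that WT cluster carries smooth muscle genes, these values compare the 2 named clusters, not an activated state in 2 conditions.

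The cells of the cluster were clustered again apart from the rest (Seurat, 20 principal components, resolution 0.2), and 6 sub-clusters were found in both mice. The same genes formed the sub-clusters, so the values below are a description with no test. Sub-cluster 0, of 2533 cells, was led by Mest, Ccl11 and Socs3 at 2.66-fold or less above the other stellate cells and was left unnamed. It was 39.7% and 52.6% of the stellate cells of mice 1 and 2. Sub-cluster 1, of 1133 cells (20.9% and 17.9%), was led by Ube2c, Hist1h1b, Prc1 and Top2a. In it Ube2c was at 775.2 and 868.9 CPM against 27.0 and 37.2 CPM in sub-cluster 0.

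Sub-cluster 2, of 789 cells (15.97% and 9.90%), was led by Tagln, Acta2 and Tnc. It held Acta2 at 4255 and 4357 CPM, Tagln at 2890 and 2771 CPM, Tnc at 765.4 and 1138 CPM and Timp1 at 7044 and 7410 CPM, and its Pdgfra level was 62.5 and 71.2 CPM. Acta2 was at 569.0 and 777.8 CPM in sub-cluster 0, still above the 58.4 and 28.9 CPM of the WT quiescent cells, so the largest sub-cluster too lay above WT. Sub-cluster 3, of 699 cells (12.2% and 12.2%), carried adventitial genes. It was led by Dmkn, Ly6c1 and Pi16, with Pi16 at 214.0 and 314.5 CPM, C3 at 682.5 and 1727 CPM and Cxcl1 at 6271 and 5820 CPM. Its Acta2 level was 379.4 and 221.4 CPM and its Tnc level 44.4 and 18.3 CPM, below those of sub-cluster 2 in each mouse.

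Sub-cluster 4, of 484 cells (10.1% and 5.54%), was led by Lyz2, C1qa, C1qb and Pf4, with Lyz2 68.4-fold above the other stellate cells. Scrublet marked 413 of its cells (85.3%) as doublets, and Col1a1 was at 3474 and 4023 CPM in it. Sub-cluster 5, of 77 cells (1.14% and 1.72%), was led by Ctla2a, Gas6, Wif1 and Inmt, held Penk at 1428 and 913.1 CPM, and was left unnamed. At resolution 0.5 there were 10 sub-clusters, with contractile (13.5%), macrophage (8.49%) and cell cycle and adventitial groups among them. With log-normalization in place of SCTransform there were 6, with cell cycle genes leading one of 29.4% of the cells and no contractile one. Both alternatives also held a group led by Clu and Gm2663 with the epithelial keratins Krt18 and Krt8 and the pancreatic secretory genes Reg3b, Reg2, Spink1 and Pla2g1b among its leading genes. It had 374 cells (6.54%) at resolution 0.5, with a median of 1584.5 UMIs, and 57 cells (1.0%) with log-normalization, of which Scrublet marked 5.35% and 12.3%. In the 57 cells Krt18 had a UMI in 86.0%.

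**Figure D4:**
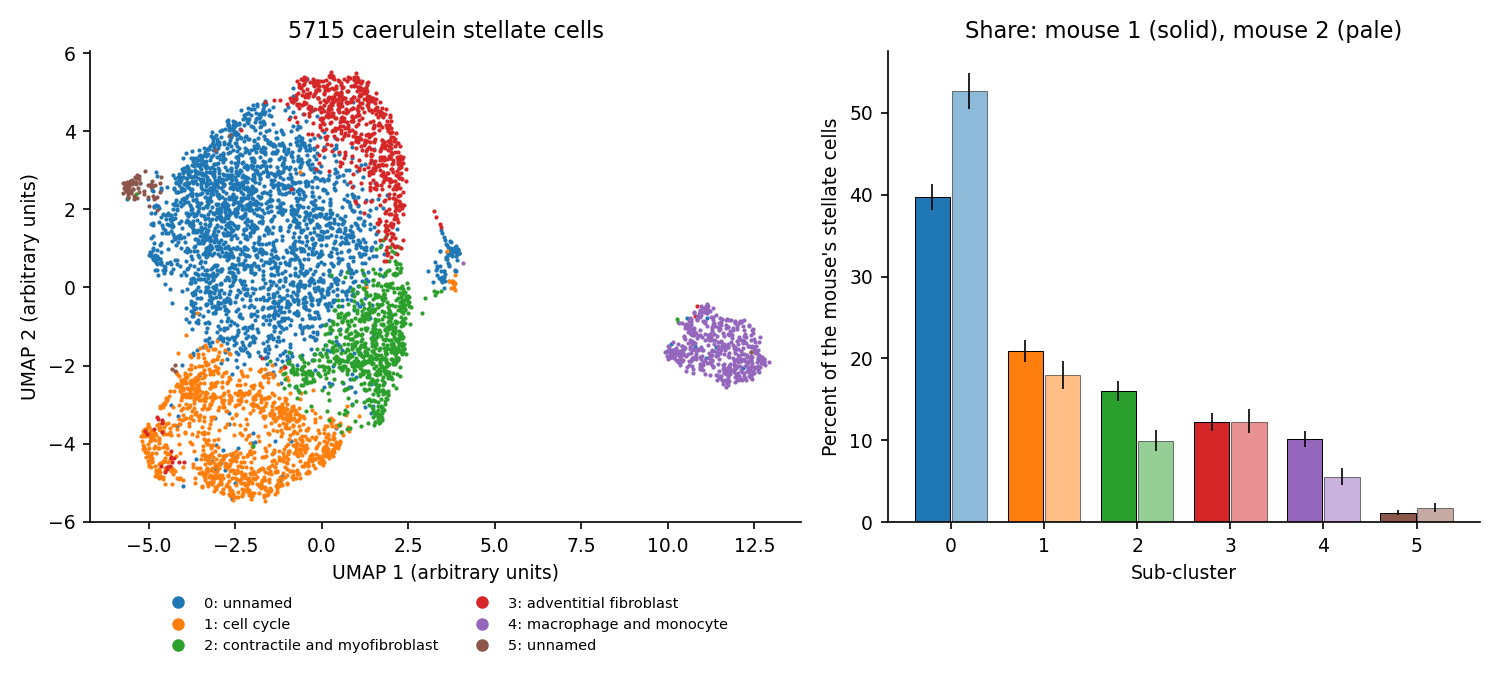
Left, the 5715 caerulein stellate cells (points) on 2 UMAP axes in arbitrary units, coloured by sub-cluster. Right, the share of each mouse's stellate cells in each sub-cluster with exact 95% binomial intervals, which cover counting error only, mouse 1 solid and mouse 2 pale. The macrophage-gene sub-cluster lies apart from the rest and was 10.1% and 5.54% of the cells.

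Whether the caerulein effect differed between stellate and endothelial cells was tested as an interaction in one fit of both cell types. That fit took all WT stellate-named cells as the WT stellate cells, the smooth muscle-gene cluster included, while the WT stellate levels printed here are those of the quiescent cells. Of 13784 genes 1055 had a different effect (7.65%), 357 with a higher effect in stellate cells (2.59%) and 698 with a lower one (5.06%). Leaving out caerulein mouse 1, caerulein mouse 2, WT mouse 1 or WT mouse 2 left 157, 511, 588 and 570. With the caerulein and WT mice alone 1427 were higher (10.6%) and 1273 lower (9.49%), and with WT quiescent cells and the first i4F stellate cluster, a fit added after seeing the data, 591 and 700. Of 20 cell cycle genes 8 had a higher effect in stellate cells and 0 a lower one, with a median difference of 2.04 on the log2 scale. Cdk1 was at 32.7 and 25.4 CPM in caerulein endothelial cells and 9.07 and 4.88 CPM in WT endothelial cells, and its effect in stellate cells was larger by 4.79 on the log2 scale (SE 0.54, adjusted p = 0.000139). Stmn1, the microtubule regulator stathmin, was at 139.3 and 130.1 CPM against 187.0 and 190.5 CPM in endothelial cells and at 345.2 and 348.9 CPM against 19.0 and 8.63 CPM in stellate cells (63.7 and 27.6 CPM in the WT activated cluster), a difference in effect of 5.07 (SE 0.50, adjusted p = 6.04e-05). The effect on Plk1 (6.32), Cenpa (4.95), Slfn9 (4.61), Hist1h2ae (4.54), Aurka (4.48), Tpx2 (4.33), Hist1h1b (4.31) and Stmn2 (4.14) was also larger in stellate cells. Summed over the list, cell cycle RNA was at 597.3 and 596.7 CPM in caerulein endothelial cells against 382.6 and 322.5 CPM in WT, and at 1971 and 2199 CPM in caerulein stellate cells against 196.7 and 140.9 CPM in WT quiescent cells.

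**Figure D5:**
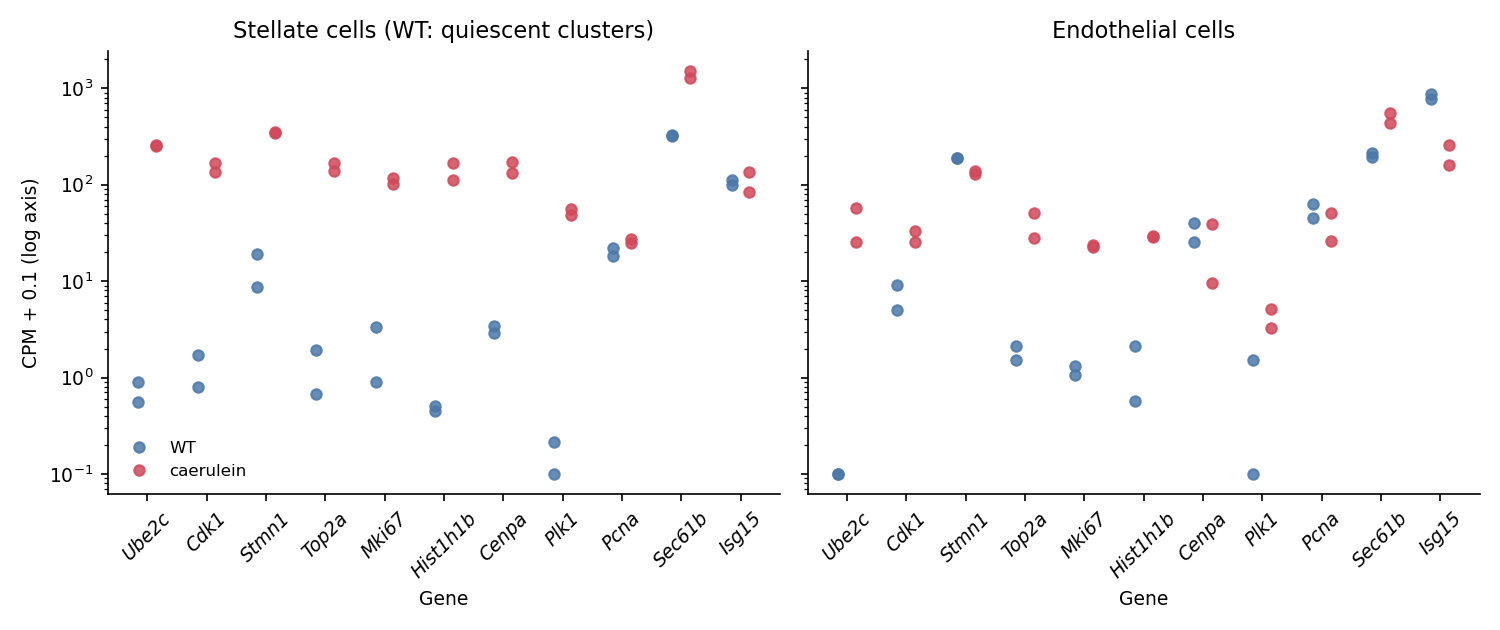
Level of 11 genes in stellate cells (left, WT quiescent clusters, where the interaction fit took all WT stellate-named cells) and endothelial cells (right) of each mouse, as CPM + 0.1 on a log axis, WT in blue and caerulein in red. Stmn1 and Cenpa are far above WT in caerulein stellate cells and not in caerulein endothelial cells.

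Of 17 secretory pathway genes 5 had a higher effect in stellate cells and 0 a lower one (8 and 0 with doublets removed). Of 14 interferon genes 4 had a higher effect and 1 a lower one. More lists leaned the other way. Lower effects in stellate cells were found for 8 of 17 collagen chains, 7 of 12 fibroblast identity genes, 8 of 14 small proteoglycans, 10 of 18 matrix proteases and inhibitors, 7 of 21 cytokines, 5 of 13 complement genes and 9 of 12 pericyte and smooth muscle genes, each with 0 higher. With doublets removed, where 2.99% of all genes tested were higher and 4.79% lower, those lower were 5 collagen chains, 3 fibroblast identity genes, 4 small proteoglycans, 6 proteases and inhibitors, 8 cytokines, 5 complement genes and 9 pericyte genes, with 1 collagen chain, 1 protease or inhibitor and 1 cytokine higher. Of 16 immediate early and heat shock genes 1 had a higher effect, Ier3, and 9 a lower one. The contractile list had 3 higher and 2 lower of 18. The pericyte and contractile counts cannot be read as an effect of caerulein alone. In that fit the WT stellate sums held the smooth muscle-gene cluster, while the smooth muscle cluster of the caerulein mice was left out. Against WT quiescent cells the pericyte list summed to 214.4 and 216.9 CPM after caerulein and 225.2 and 210.4 CPM in WT. Isg15 was at 84.1 and 135.7 CPM in caerulein stellate cells and 111.0 and 99.3 CPM in WT quiescent cells (249.7 and 225.4 CPM in the WT activated cluster), but at 159.4 and 260.3 CPM against 775.8 and 881.1 CPM in endothelial cells, a difference in effect of 1.97 (SE 0.45, adjusted p = 0.0134). Ier3 rose in stellate cells and was at 2135 and 2009 CPM against 4145 and 6319 CPM in endothelial cells (difference 3.25, adjusted p = 0.00245).

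The endothelial sums held RNA of other cells. The macrophage list summed to 8736 and 5977 CPM in caerulein endothelial cells against 74.9 and 96.7 CPM in WT endothelial cells, and Col1a1 to 301.2 and 133.3 CPM against 3.82 and 8.53 CPM. The genes with the lowest difference were Gm37899, Rab7b, Myh11, Ptgs2, Pcp4l1, Adora2b, Emilin2, Vwa1, Pcolce2 and Sirpa, from -7.84 to -6.01 on the log2 scale. For Rab7b, Ptgs2, Emilin2 and Sirpa the WT endothelial cells were at 1.22 CPM or less and the caerulein endothelial cells at 9.52 to 57.9 CPM, while the stellate levels were lower after caerulein than in WT quiescent cells. The part of free RNA in these differences was not tested. With WT quiescent cells and the first i4F stellate cluster in the fit, 2 changes at once, the differences of Myh11 and Pcp4l1 were -0.17 and -1.10 (adjusted p = 0.967 and 0.401). In that fit the effect on Acta2 was larger in stellate cells by 2.57 (adjusted p = 0.00622), where the planned fit gave -2.27 (adjusted p = 0.0302), and that on Col1a1 was -2.82 in place of -2.83.

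The i4F mice share the WT controls, so their stellate levels are given as values only. Timp1 was at 8515, 9282 and 2788 CPM in i4F mice 1, 2 and 3, Tnc at 396.0, 273.7 and 150.9 CPM, and Acta2 at 2345, 605.2 and 635.9 CPM. Saa3 was at 156.0, 280.0 and 104.9 CPM, Cxcl5 at 59.8, 122.9 and 48.5 CPM, and Ube2c at 230.9, 178.9 and 40.3 CPM. All 3 i4F mice lay above both WT quiescent values for each of these genes, and mouse 3, most of whose stellate cells are in a second cluster, was lowest in 5 of the 6.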

How the data were processed

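Single-cell suspensions of pancreas from 7 mice gave one 10x Genomics 3′ library each. The authors aligned reads with Cell Ranger to mm10 (GRCm38) and deposited UMI counts per gene and cell with a cluster name for each cell, per the file headers; versions are not given in the sources used here. They removed cells with few genes or a high mitochondrial share, ran SoupX against free RNA, at a stage not stated relative to the deposited counts, and clustered and named each condition apart in Seurat. The stellate cells were taken from those names. The authors also deposited, per the file headers, the percent of mitochondrial UMIs of each cell. All counts were whole numbers, and 0 columns were left unmapped.

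From the deposited counts, UMIs were summed per mouse and cell class (at least 20 cells) and tested with edgeR 4.0.16 in R 4.3.3 (quasi-likelihood F test, TMM, filterByExpr, adjusted p under 0.05), fitted over the 7 mice. CPM values are scaled to the UMI total of the class, without TMM. DESeq2 1.42.0 was an alternative. Scrublet through scanpy 1.11.5 (30 principal components) marked doublets, and Seurat 5.3.0 gave the sub-clusters. Shares were compared with an exact permutation test in scipy 1.17.1. Intervals are at 95% and cover counting error only, and a count of 0 was set to a floor of 3 counts. The members, the 30 gene lists and the tests were chosen with earlier results of these data known. Named genes are those of the lists and, per comparison, up to 10 in each direction with the largest change among called genes with a mean log2 CPM of at least 4 and mice that do not overlap, plus the 10 leading genes of a cluster by fold with 20 CPM added. List members given beside these were chosen for their role after their values were seen. Alternatives were scaling, filter, tool, samples in the fit, the replicate block, library name series, depth, doublets and each mouse left out. A few members of the lists are not reported here by name; the list counts include them.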

Additional observations from a re-analysis of the deposited data

Results flagged for a closer look

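The caerulein effect differed between stellate and endothelial cells for 1055 genes, tested as an interaction term in edgeR over both cell types with Benjamini-Hochberg adjustment. Among the named genes the effect was larger in stellate cells for Plk1 (6.32 on the log2 scale), Stmn1 (5.07), Cenpa (4.95), Cdk1 (4.79), Slfn9 (4.61), Hist1h2ae (4.54), Aurka (4.48), Tpx2 (4.33), Hist1h1b (4.31), Stmn2 (4.14), Ier3 (3.25) and Isg15 (1.97). It was lower in stellate cells for Gm37899 (-7.84), Rab7b (-7.57), Myh11 (-7.20), Ptgs2 (-6.97), Pcp4l1 (-6.70), Adora2b (-6.67), Emilin2 (-6.25), Vwa1 (-6.11), Pcolce2 (-6.04), Sirpa (-6.01), Col1a1 (-2.83) and Acta2 (-2.27). The endothelial sums held RNA of other cells, with the macrophage list at 8736 and 5977 CPM after caerulein against 74.9 and 96.7 CPM in WT. Col1a1 itself rose in stellate cells, and 8.39% and 4.71% of the caerulein endothelial cells had a UMI of it. The part of free RNA in the lower effects was not tested. With WT quiescent cells and the first i4F stellate cluster in the fit, Acta2 was at 2.57 (adjusted p = 0.00622), Myh11 at -0.17 (adjusted p = 0.967) and Pcp4l1 at -1.10 (adjusted p = 0.401). Without caerulein mouse 1, Pcolce2 was at 2.58 (adjusted p = 0.973). Of 25 named interaction genes 24 were called, and 14 of these no longer passed with sums thinned to the smallest total. No group had the 4 samples that a check for a single sample far from the others needs.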

How the results depend on the processing

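The number of genes that differed from WT quiescent cells, 2232, was 3501 with DESeq2, 4145 without a filter on low counts, 5088 with the caerulein and WT mice alone, 1 with the library name series as a term and 1 to 47 with a mouse left out. Alternatives chosen after seeing the data gave 5465 without the second i4F stellate cluster, 1257, 2009, 4190 and 4912 with the 4 mice alone and caerulein mouse 1, caerulein mouse 2, WT mouse 1 or WT mouse 2 left out, and 2407, 3357, 3930 and 4696 for the same removals without that i4F cluster. With a replicate block the count was 4896, but nothing in the labels ties the numbers to shared animals or days, and the deviations of same-numbered mice correlated at -0.424. The crossed pairing called 6103 genes. Against all WT stellate cells, 2532 became 4336 without a filter, 5359 with the 4 mice alone, 5229 with the replicate block, 7 with the name series, 1600 with sums thinned to the smallest total, 8 to 47 with a mouse left out and 5465 without the second i4F and the WT activated clusters. Against WT activated cells, 3105 became 1541 with the name series, 1782 thinned and 980 to 1453 with a mouse left out. The interaction count, 1055, became 673 with DESeq2, 2700 with the 4 mice alone, 181 thinned and 157 to 588 with a mouse left out, the lowest without caerulein mouse 1. Apart from thinning and removal, the cause was not tested.

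The difference in stellate share, -6.34 points, became 18.6 among non-immune cells and -12.9 among cells with at least 500 genes. It ran from -13.0 to 0.329 with a mouse left out, above 0 without WT mouse 2. The sub-clusters numbered 10 at resolution 0.5, with 14.9% of the cells in groups named adventitial. Part of that, a group of 2.36% of the cells, was led by the cell cycle gene Ube2c, with Top2a in 97.8% of its cells. Log-normalization gave 29.4% cell cycle and 11.1% adventitial. Of 119 named genes against WT quiescent cells none changed direction under these alternatives. Of the named interaction genes, Pcolce2 ran from -6.38 to 2.58 with a mouse left out, the highest without caerulein mouse 1 (adjusted p = 0.973), Tpm1 at -0.20 without WT mouse 2 (adjusted p = 0.945) and Acta2 at 2.57 with WT quiescent cells and the first i4F cluster (adjusted p = 0.00622), by edgeR.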
